A study of Mus musculus with 3 samples.

Results

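The cells described here are macrophages from mouse liver tumours that carry C1q transcripts but almost no transcripts that mark Kupffer cells, the resident macrophages of the liver. They were chosen by raw counts of unique molecular identifiers (UMIs), each of which stands for 1 captured RNA molecule. Barcodes with fewer than 200 genes, or with more than 10% of their UMIs from mitochondrial genes, were left out. It became a member with at least 5 UMIs of C1qa, C1qb and C1qc together and at most 1 UMI of the 5 Kupffer genes Cd5l, Clec4f, Vsig4, Timd4 and Marco. Members also had no UMI of Cd3d, Cd3e, Cd3g, Cd79a, Siglech or Xcr1, and S100a8 and S100a9 made up less than 1% of their UMIs. This selected 2391 of the 36386 filtered cells. The Control library gave 973 members of 10419 cells, the DU101 library 836 of 14257 and the DU102 library 582 of 11710.

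The mice were C57BL6 MYC-ON animals aged 18 weeks. All 3 libraries held live CD45+ leukocytes sorted out of their liver tumours, and each was sequenced with the 10x 3' v3 chemistry. The groups differed by treatment, named Control, DU101 and DU102. No source used here says what the last 2 are, at which dose they were given, how many animals of which sex were used or which promoter drives MYC. Each group is 1 library, and a difference between groups therefore cannot be set against the spread of replicates. Intervals cover counting error only, and no p-value is given.

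Macrophages of a tumour arise largely from blood monocytes, while Kupffer cells are seeded before birth and renew themselves in the liver. Interferons make macrophages transcribe antiviral genes, antigen-presentation genes and chemokines that recruit T cells, and C1q itself opens the classical complement pathway. Patrolling monocytes, which crawl along vessel walls, carry the Fc receptor Fcgr4 and differ in this from classical, Ly6c2-positive monocytes.

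In Control, members made up 9.34% of filtered cells (95% exact Clopper-Pearson interval 8.79 to 9.91), 5.86% in DU101 (5.48 to 6.26) and 4.97% in DU102 (4.58 to 5.38). These shares describe cells after a sort and depend on how many other cells each library holds. The median member had 7480 UMIs in Control, 4837 in DU101 and 6295 in DU102, and the summed UMIs were 8091034, 4945134 and 4022871. No barcode was a member in more than 1 library. Near the threshold, 41, 45 and 25 members had exactly 5 C1q UMIs, and 47, 44 and 31 otherwise eligible cells had 4. At the Kupffer limit, 124, 99 and 74 members had a sum of 1, and 52, 50 and 32 cells just outside it had 2.

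The libraries differed in the sex of their cells. In Control, 396 members carried Xist RNA, the transcript of the inactive X chromosome, with no Y-linked RNA, and 257 carried Y-linked RNA without Xist. In DU101 the same counts were 1 and 343, and in DU102 they were 0 and 328. Another 34 members of Control carried both, and 286, 492 and 254 members of the 3 libraries carried neither. Where such RNA was seen, Control thus held both sexes and the treated libraries almost only male RNA, so over all members sex and treatment cannot be told apart. Some results below are therefore also given for the members of each library that carry Y-linked RNA without Xist, called Y-linked members. The others are given over all members only, where sex was not separated from treatment. These are deeper cells, with medians of 9750, 6598 and 8034.5 UMIs, against 7480, 4837 and 6295 over all members.

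The label was checked on genes that the rule did not use. Levels are counts per 1000000 UMIs, summed over the cells of 1 library (CPM). Ms4a7, a membrane protein of macrophages, stood at 465, 919 and 547 CPM in Control, DU101 and DU102 members, against 45.5, 43.2 and 29.1 in Ly6c2-positive monocytes. Apoe, the lipid carrier apolipoprotein E, stood at 13313, 15434 and 13360 CPM, against 2713, 1807 and 1737 in monocytes and 28267, 25153 and 35215 in Kupffer cells. C3ar1, the receptor for complement fragment C3a, stood at 148, 156 and 146 CPM, against 18.2, 8.85 and 10.6 in monocytes. Members of every library were thus above monocytes in the 3 markers outside the rule, and Apoe lay between the monocyte and Kupffer levels. The monocyte class was itself limited to cells with at most 1 C1q UMI. How far that limit made up the gap in these markers was not tested. Csf1r, the receptor for the growth factor that macrophages need, was at 368, 346 and 381 CPM, and Adgre1, which encodes F4/80, was at 141, 154 and 167 CPM.

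A share of the members was shallow. There were 151, 165 and 123 members with under 2000 UMIs, and their Slc40a1, the iron exporter abundant in Kupffer cells, was at 1101, 669 and 602 CPM. Among deeper members Slc40a1 was at 124, 76.6 and 53.8 CPM, against 1119, 835 and 1063 in Kupffer cells. Kupffer genes outside the rule, Slc40a1 among them, summed to 2668, 2212 and 2210 CPM in shallow members and 898, 870 and 810 in deeper ones. Kupffer cells had 3909, 3652 and 3991 CPM. Cdh5, another of these genes, was at 0, 5.23 and 7.08 CPM in shallow members, against 71.6, 55.4 and 62.6 in Kupffer cells. Slc40a1 of shallow members was thus near the Kupffer level in Control and below it in DU101 and DU102. How many of the shallow members are Kupffer cells with few UMIs was not tested. They hold a small part of the summed UMIs, since sums weight each cell by its depth.

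**Figure D1:**
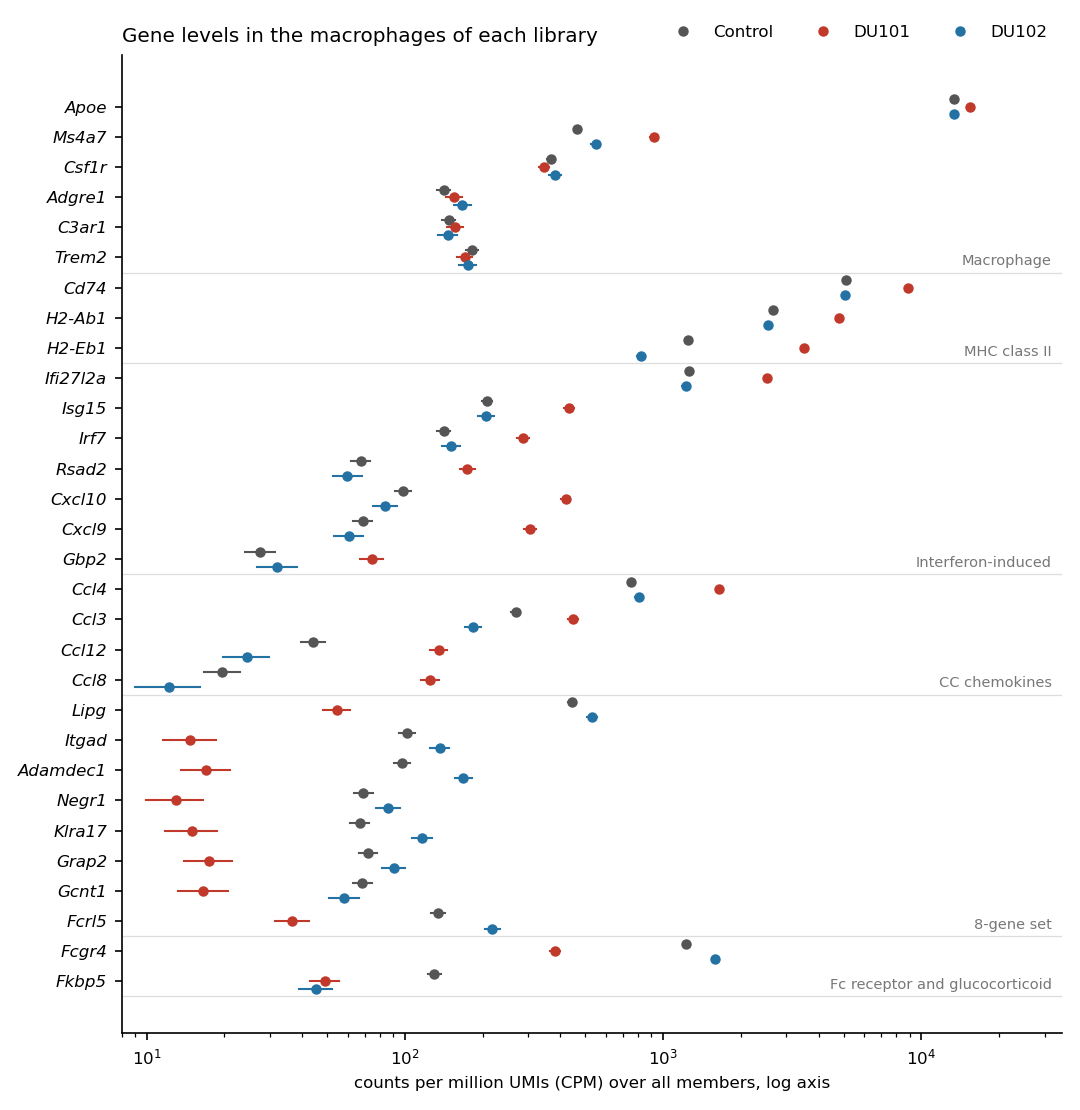
Levels in CPM (log axis) of named genes summed over the members, with 1 point per library and bars for the 95% counting interval. The interferon-induced, MHC class II and CC chemokine genes are highest in DU101 (Cxcl10 at 419 CPM, against 98.3 in Control and 84.0 in DU102), and Lipg and the other 7 genes of its set are lowest there.

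Between DU101 and Control, 8152 genes had at least 100 UMIs over both member sets. A gene is called higher or lower here by size alone, at 1.5-fold or more. In DU101, 319 genes (3.91%) were higher and 705 (8.65%) were lower, and the median log2 ratio over all genes was -0.09. Antiviral genes, MHC class II genes and chemokines lay on the high side. A group of genes led by Lipg, Itgad and Adamdec1 lay on the low side.

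Of 34 measured genes that type I interferon induces, 18 were higher in DU101 and 0 lower, with a median log2 ratio of 0.60. Isg15, a ubiquitin-like protein that is attached to other proteins in antiviral defence, was at 208 CPM in Control, 432 in DU101 and 206 in DU102. Its ratio of DU101 over Control was 2.08 (1.95 to 2.22). Irf7, the transcription factor that amplifies interferon production, was at 142, 287 and 151 CPM. Rsad2, which encodes viperin, an enzyme that blocks viral replication, was at 67.5, 175 and 59.9 CPM, a ratio of 2.59 (2.32 to 2.88). The DU101 members were the high ones in all 3, and Control and DU102 lay within 1.13-fold of each other for Rsad2.

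Ifi44, an interferon-induced protein, was at 11.1, 37.6 and 13.4 CPM, and Usp18, which removes Isg15 and dampens interferon signalling, at 17.6, 42.7 and 12.4. Iigp1, a GTPase that attacks the vacuoles of intracellular parasites, was at 11.7, 41.9 and 15.9 CPM, and Gbp2, a guanylate-binding protein of the same defence, at 27.4, 74.4 and 32.1. These 4 genes repeat the order in which DU101 was highest. Of 21 measured genes that interferon-gamma induces, 11 were higher in DU101 and 0 lower, with a median of 0.62. Interferon genes were higher in T cells of the DU101 library too: Isg15 was at 125, 238 and 105 CPM there, and Irf7 at 33.9, 68.8 and 31.3. That class had no limit on neutrophil genes, and a list of these summed to 5691, 14031 and 130691 CPM in it. T cell values here and below carry this RNA, and its part in them was not tested. The type I interferon list summed to 2577, 4017 and 3384 CPM in Kupffer cells and 4092, 4725 and 3195 in monocytes. DU101 was highest for this list in every comparison class.

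The promoters of 4 of these genes are shown because they hold the sequence that interferon-activated factors of the IRF and STAT families are known to bind, the interferon-stimulated response element. Each is the 250 bases before the transcription start, 5' to 3' on the gene's strand, from the RefSeq promoter table of GRCm38.p6, and capitals mark matches to GAAANNGAAA on either strand. The Cxcl10 promoter is chr5:92348890-92349139 on the minus strand, the Rsad2 promoter chr12:26456453-26456702 on the minus strand, the Gbp2 promoter chr3:142620413-142620662 on the plus strand and the Isg15 promoter chr4:156200819-156201068 on the minus strand.
Cxcl10: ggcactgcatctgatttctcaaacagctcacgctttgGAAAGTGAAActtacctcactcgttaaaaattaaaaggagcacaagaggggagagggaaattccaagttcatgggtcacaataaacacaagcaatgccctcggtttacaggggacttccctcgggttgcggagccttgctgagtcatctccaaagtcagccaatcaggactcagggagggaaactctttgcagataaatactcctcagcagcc
Rsad2: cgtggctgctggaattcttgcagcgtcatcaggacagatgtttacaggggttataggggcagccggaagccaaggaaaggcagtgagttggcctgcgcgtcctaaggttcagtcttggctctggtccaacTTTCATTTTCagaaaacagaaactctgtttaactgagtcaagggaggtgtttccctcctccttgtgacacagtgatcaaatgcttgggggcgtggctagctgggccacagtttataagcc
Gbp2: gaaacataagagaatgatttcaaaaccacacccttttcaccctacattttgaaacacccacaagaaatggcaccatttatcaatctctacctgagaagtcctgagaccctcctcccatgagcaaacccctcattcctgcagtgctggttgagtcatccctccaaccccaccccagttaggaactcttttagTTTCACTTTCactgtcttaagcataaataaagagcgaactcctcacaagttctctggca
Isg15: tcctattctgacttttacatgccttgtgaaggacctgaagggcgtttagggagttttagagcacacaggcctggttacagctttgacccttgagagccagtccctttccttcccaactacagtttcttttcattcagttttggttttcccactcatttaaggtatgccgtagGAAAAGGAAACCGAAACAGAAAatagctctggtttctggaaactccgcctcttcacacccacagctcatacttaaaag
The match begins 213 bases before the start in Cxcl10, on the gene's strand, and 120 bases before it in Rsad2 and 59 in Gbp2, on the opposite strand. Isg15 holds 3 overlapping matches on the gene's strand, which begin 78, 72 and 66 bases before its start. Over all promoters of this length, taken once per gene, 828 of 27025 (3.06%) hold a match. Among the list genes found in the table, 13 of 26 type I interferon genes (50%), 12 of 18 interferon-gamma genes (66.7%), 2 of 16 chemokines (12.5%) and 1 of 9 MHC class II genes do. Ccl8, Cxcl9, Ccl12, Cxcl1, Ifi44 and Irf7, all higher in DU101, have none in this window. A match is a description of the letters and says nothing about binding in these cells.

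MHC class II genes, which display peptides to CD4+ T cells, were higher in DU101. Of 12 measured genes, 8 were higher and 0 lower, with a median log2 ratio of 0.70. H2-Eb1, a beta chain of the class II molecule, was at 1249 CPM in Control, 3513 in DU101 and 821 in DU102, a ratio of 2.81 (2.74 to 2.88) for DU101. H2-Ab1, the other beta chain, was at 2670, 4772 and 2535 CPM, and Cd74, the invariant chain that guides class II molecules to the endosome, at 5122, 8904 and 5045. Ciita, the master activator of class II transcription, was at 52.4, 78.5 and 58.2 CPM. After each member was thinned to 2000 UMIs, H2-Ab1 was detected in 55.5% of members in Control, 80.8% in DU101 and 51.9% in DU102. Without thinning the shares were 65.4%, 81.5% and 58.1%, and thinned T cells, which do not make it, showed 11.9%, 12.4% and 8.06%. So H2-Ab1 RNA was found in a larger share of DU101 members at equal depth. The class II list summed to 14273, 25729 and 13683 CPM in members and to 5767, 7645 and 7291 in Kupffer cells. It was at 4735, 5348 and 3594 CPM in monocytes, while B cells were lowest in DU101, at 12487, 5934 and 13022. The rise in DU101 was thus not limited to the members. MHC class I genes, which serve CD8+ T cells, differed less: 2 of 20 were higher and 0 lower, with a median of 0.24.

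Of 19 measured chemokines, 11 were higher and 3 lower in DU101, with a median log2 ratio of 0.72. The chemokine list summed to 3652, 6291 and 3254 CPM in members. Kupffer cells also had the most in DU101, at 2733, 4685 and 2435 CPM, while monocytes did not, at 3771, 3662 and 2363. Cxcl9, which attracts T cells through the receptor CXCR3, was at 68.7, 305 and 60.7 CPM, a ratio of 4.43 (4.02 to 4.89). Cxcl10, a ligand of the same receptor, was at 98.3, 419 and 84.0 CPM, a ratio of 4.26 (3.93 to 4.63). Ccl8 and Ccl12, attractants of monocytes, were at 19.7, 125 and 12.2 CPM and at 44.0, 135 and 24.4 CPM. In all 4, DU101 was the highest library. Their RNA sat in few cells. Thinned to 2000 UMIs, Cxcl9 was detected in 2.43% of members in Control, 9.54% in DU101 and 2.40% in DU102, against 0.306%, 0.608% and 0.20% of T cells. Cxcl10 was detected in 5.96%, 13% and 3.92% of members, against 7.66%, 7.75% and 5.31% of T cells, so the Control and DU102 shares are not above that background. For Ccl8, 1 cell held 31.0% of the DU101 UMIs, and leaving out the highest member of each library gave a ratio of 5.49.

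Ccl3 and Ccl4, inflammatory chemokines of the CC family, were at 269, 447 and 183 CPM and at 753, 1646 and 805 CPM. Cxcl1 and Cxcl2, attractants of neutrophils, were at 21.3, 66.5 and 8.95 CPM and at 715, 1334 and 506 CPM. Both pairs were highest in DU101. The 3 lower ones were Cxcl13, which draws B cells, at 88.7, 37.2 and 118 CPM, Cxcl14 at 51.3, 12.5 and 62.1, and Ccl17, which draws helper T cells, at 16.6, 7.48 and 3.73. Among 19 inflammatory cytokines and feedback genes of NF-kB, 9 were higher in DU101 and 0 lower, with a median of 0.49. Il1b, the pyrogenic cytokine interleukin 1 beta, was at 321, 682 and 615 CPM, and Tnf at 50.5, 98.1 and 37.8 CPM. Il1b was thus high in both treated libraries and Tnf in DU101.

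Arg1, the arginase that consumes arginine, was at 15.3, 59.5 and 19.4 CPM, and C4b, a component of the classical complement pathway, at 10.4, 35.4 and 6.21. The 2 genes that the same naming rule ranked highest in DU101 over Control were held by single cells. Cma1, a mast cell protease, was at 3.09 and 57.2 CPM with 84.8% of the DU101 UMIs in 1 cell. Fabp1, a fatty-acid-binding protein of hepatocytes, was at 6.30 and 62.7 CPM with 70.6% in 1 cell. Neither describes the members as a whole.

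**Figure D2:**
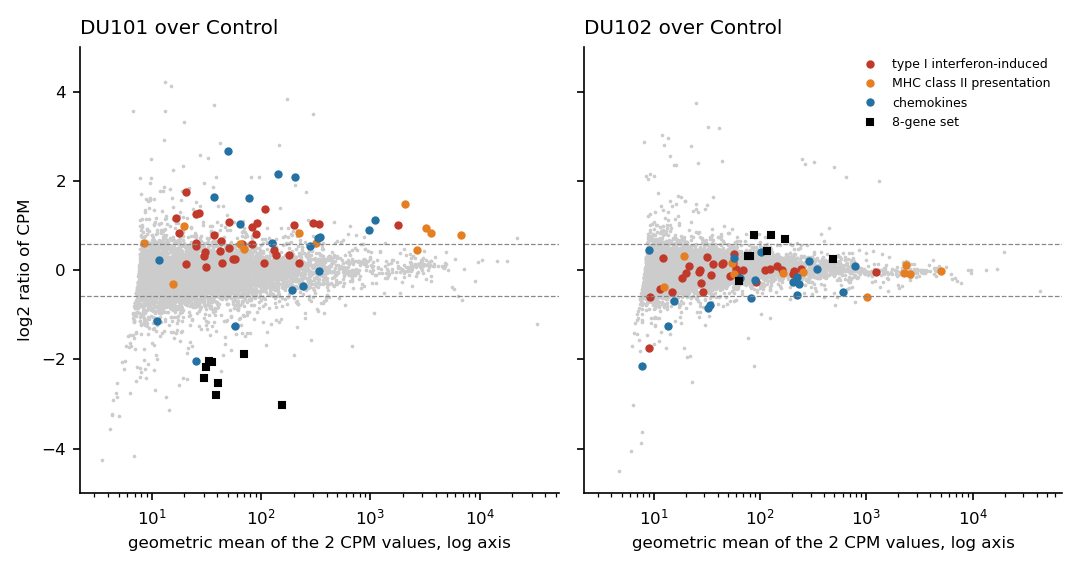
Each grey point is a gene, with the geometric mean of its 2 CPM values (log axis) against its log2 ratio over Control for DU101 on the left and DU102 on the right. Dashed lines mark 1.5-fold, the ratio axis is limited to 5 in each direction, and coloured points are the interferon, class II and chemokine lists, which lie mostly above 0 in DU101, while black squares are the 8-gene set led by Lipg.

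Within Y-linked members (257, 343 and 328 cells), DU101 again had the highest levels of these groups. H2-Ab1 was at 1332, 4453 and 2246 CPM, a ratio of 3.34 for DU101, and was at 4183 CPM in Control members with Xist. Isg15 was at 127, 373 and 205 CPM, against 294 in Control members with Xist. Cxcl10 was at 49.6, 314 and 86.1 CPM, against 169 in Control members with Xist. In Control, members with Xist thus had higher levels of these 3 genes than Y-linked members. Ccl12 was at 20.5, 125 and 20.7 CPM and Ccl8 at 15.4, 183 and 8.48 CPM in Y-linked members. Rsad2 gave the lowest ratio here, 1.71 (1.42 to 2.06), against 2.59 over all members, with 65.4, 112 and 57.0 CPM.

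Y-linked members also changed what DU102 showed. Its ratio over Control was 1.69 for H2-Ab1 and 1.62 for Isg15, against 0.949 and 0.992 over all members. The DU102 level of both genes was therefore near that of all Control members and above that of Y-linked Control members. How many animals the Y-linked Control members came from is not given.

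**Figure D3:**
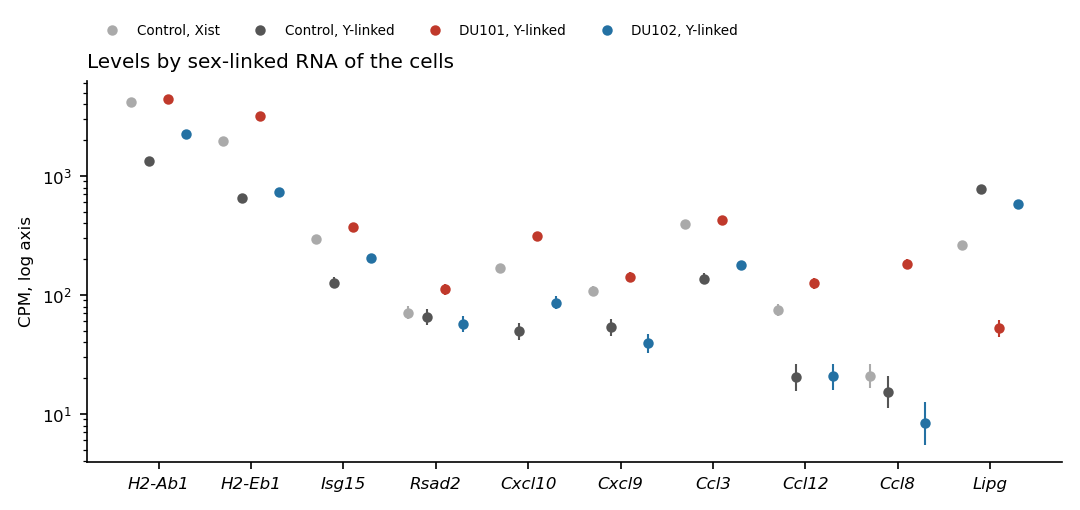
Levels in CPM (log axis) of 10 named genes in Control members with Xist and in Y-linked members of the 3 libraries, with bars for the 95% counting interval. H2-Ab1 is at 4183 CPM in Control members with Xist, at 1332 in Y-linked Control members and at 4453 in those of DU101.

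Among genes of at least 50 CPM whose level in the members reached 0.25 of their highest class level, with haemoglobin and some other classes left out, the 10 ranked lowest in DU101 over Control were Lipg, Itgad, Adamdec1, Negr1, Syne1, Klra17, Ccnd2, Grap2, Gcnt1 and Fcrl5. Lipg, an endothelial-type lipase that cleaves phospholipids of lipoproteins, was at 443, 54.6 and 531 CPM, a ratio of 0.123 (0.108 to 0.139) for DU101. Itgad, the integrin alpha D that pairs with CD18 on leukocytes, was at 102, 14.8 and 136 CPM. Adamdec1, a metalloprotease of tissue macrophages, was at 97.8, 17.0 and 169 CPM. All 3 were low in DU101 alone. Fcrl5, an Fc-receptor-like protein, was at 134, 36.6 and 218 CPM, and Klra17, a Ly49-family receptor, at 67.0, 15.0 and 117. Ccnd2, which encodes cyclin D2 of the G1 phase, was at 386, 104 and 431 CPM.

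Of these 10, 8 (all but Syne1 and Ccnd2) had in the members at least 0.95 of their highest level in any class, and are taken as a set. The set was chosen after the values were seen, so its drop in DU101 is a description. Members with at least 2 UMIs of the set, after thinning to 2000 UMIs, were 220 of 822 in Control (26.8%, 23.8 to 29.9), 37 of 671 in DU101 (5.51%, 3.91 to 7.52) and 167 of 459 in DU102 (36.4%, 32.0 to 41.0). Without thinning the shares were 32.6%, 11% and 39.5%. Thinned T cells reached 1.99%, 2.39% and 2.71%, and thinned Kupffer cells 5.24%, 2.56% and 8.75%. The members that passed this limit were thus a sizeable group in Control and DU102 and a small one in DU101. Among members with at least 2 UMIs of the set before thinning, Lipg was at 1107, 349 and 1142 CPM and Itgad at 253, 79.2 and 289. All 8 genes were lowest in DU101 there too. Less RNA per cell also lowers the share that passes a limit in UMIs. How far fewer such cells or less RNA per cell made up the drop was not tested. In Control, 137 of 257 Y-linked members (53.3%) and 103 of 396 members with Xist (26.0%) had 2 or more UMIs of the set. Among Y-linked members of the treated libraries it was 14.3% in DU101 and 49.1% in DU102.

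Members with the set shared genes that the set did not include. Fcgr4, which binds IgG2 antibodies, was at 2758 CPM in Control members with the set and 208 in those without, at 1225 and 228 in DU101 and at 3119 and 256 in DU102. Cd300e, an activating receptor of non-classical monocytes, was at 473 and 17.5 CPM in Control, 283 and 22.9 in DU101 and 599 and 27.9 in DU102. Pou2f2, a transcription factor of patrolling monocytes, was at 862 and 188, 598 and 180, and 954 and 214 CPM. All 3 were higher with the set in every library. The patrolling monocyte list as a whole was mixed: 5 of 11 measured genes were higher and 1 lower in Control (median log2 ratio 0.24), 6 and 1 of 10 in DU101 and 5 and 0 of 10 in DU102. Ace, a peptidase of patrolling monocytes, was at 9.59 CPM with the set and 16.9 without in Control. In DU102 it was also lower with the set, at 6.42 and 18.1, while in DU101 it was higher, at 26.4 and 14.6. Cx3cr1, their fractalkine receptor, was at 83.6 and 310 CPM in Control and was lower with the set in DU101 and DU102 too. Apoe was lower with the set, at 5076 and 18790 CPM in Control, 8302 and 16724 in DU101 and 5444 and 20226 in DU102. C3ar1 was at 48.9 and 213, 110 and 165, and 67.4 and 215 CPM. Apoe, C3ar1 and Ms4a7, the markers outside the rule, were all lower in the members with the set in each library. The core macrophage list summed to 12841, 20376 and 14155 CPM in members with the set, against 21686, 17730 and 19324 in monocytes. In Control and DU102 the members with the set were thus below monocytes in this sum. In the 3 markers they were not. Members with the set had Ms4a7 at 276, 791 and 456 CPM. In Ms4a7, Apoe and C3ar1 they were above the monocyte levels given earlier in each library.

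Mki67, a protein of dividing cells, was at 177 CPM with the set and 41.0 without in Control, 132 and 44.2 in DU101 and 144 and 54.8 in DU102. Over the cell cycle list, the median log2 ratio of members with over without the set was 1.43 in Control, 0.76 in DU101 and 1.14 in DU102. For MHC class II genes it was -1.80, -0.62 and -1.73, and for chemokines -2.03, -1.16 and -2.03. Members with the set thus carried less class II and chemokine RNA and more cell cycle RNA in each library. RNA of other cell types differed with the set as well. Ighm, the heavy chain of IgM made by B cells, was at 462 and 53.9 CPM with and without the set in Control, 215 and 76.4 in DU101 and 503 and 69.2 in DU102. The erythroid list was at 2795 and 395 CPM in Control, 39.6 and 28.4 in DU101 and 10633 and 1362 in DU102. The hepatocyte list was higher with the set in Control alone, at 1163 and 477 CPM, against 281 and 1580 in DU101 and 552 and 627 in DU102. The part of this RNA in the values above was not tested. The median depth of members with the set was 9002, 7406.5 and 7310.5 UMIs, against 6852.5, 4641 and 5259.5 without, and deeper cells pass a threshold in UMIs more easily.

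**Figure D4:**
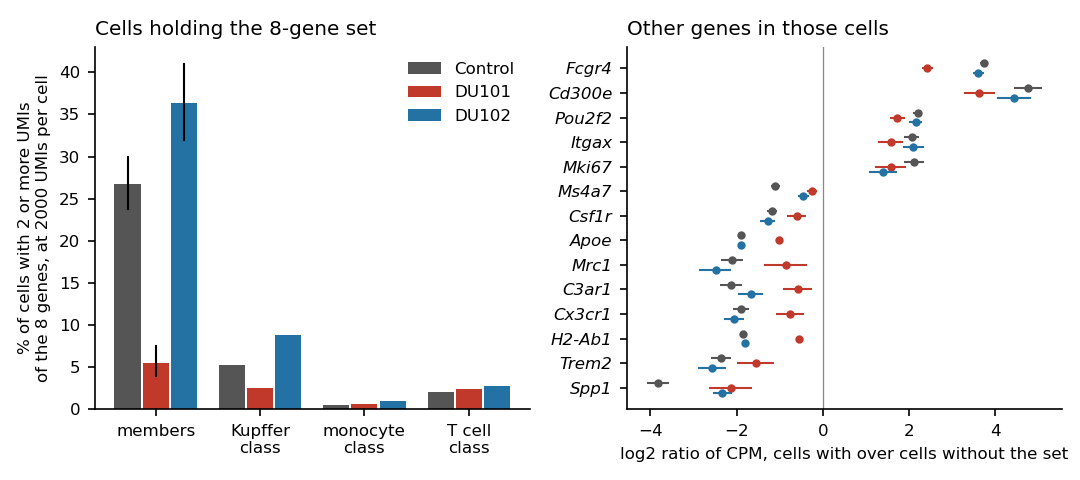
Left, percent of thinned cells with at least 2 UMIs of the 8-gene set in each library and class, with exact 95% intervals for the members (26.8% in Control, 5.51% in DU101 and 36.4% in DU102). Right, log2 ratio of CPM in members with over members without the set for genes outside it, with 95% counting intervals, where Fcgr4 and Cd300e lie above 0 and Apoe and C3ar1 below 0 in all 3 libraries.

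In members with fewer than 2 UMIs of the set, 656 in Control, 744 in DU101 and 352 in DU102, Fcgr4 no longer differed by 1.5-fold: its ratio of DU101 over Control was 1.09, against 0.310 over all members. Interferon and chemokine genes stayed higher in DU101, with ratios of 1.78 for Isg15, 2.47 for Rsad2, 3.12 for Cxcl9, 3.35 for Cxcl10 and 4.85 for Ccl8. H2-Ab1 was at 3755, 5016 and 3794 CPM, a ratio of 1.34, below the 1.5-fold limit, and H2-Eb1 gave 2.16. The class II list median was 0.40 in these cells.

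Both limits together left 120, 294 and 167 Y-linked members with fewer than 2 UMIs of the set. There, DU101 over Control gave 1.86 for H2-Ab1, 2.82 for H2-Eb1, 2.71 for Isg15, 3.56 for Cxcl10, 3.13 for Ccl12 and 8.66 for Ccl8. Rsad2 gave 1.65, with 69.6, 115 and 53.4 CPM. Cxcl9 gave 1.42 (1.17 to 1.73), with 118, 167 and 49.2 CPM, and so was no longer past 1.5-fold. The other genes named in this split were past 1.5-fold.

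Genes of macrophage identity differed little. Of 20 core macrophage genes, 1 was higher in DU101 and 0 lower, with a median log2 ratio of 0.10. The gene was Ms4a7, with a ratio of 1.98 (1.89 to 2.06) over all members and 1.89 in Y-linked members without the set. Of 29 lysosomal genes, none passed 1.5-fold and the median was -0.05. Cathepsin B (Ctsb), a protease of the lysosome, was at 2773, 2700 and 2485 CPM. Of 7 Fc receptor genes, Fcgr4 was the 1 that was lower and none was higher. Outside C1q, complement genes were split, with 3 of 11 higher and 3 lower.

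Over all members, lists of resident, lipid-loaded and phagocytic macrophages had more lower than higher genes in DU101. Of 10 genes of the perivascular and resident type, 0 were higher and 4 lower, of 17 lipid-associated genes 0 and 4, and of 19 efferocytosis and scavenger genes 1 and 6. Over all genes, 3.91% were higher and 8.65% lower, so lower calls outnumbered higher ones there too. The perivascular median of -0.34 turned to 0.034 against Y-linked Control members and to 0.55 in members with no UMI of Ly6c2, Ccr2 or Plac8, where the efferocytosis median of -0.28 turned to 0.33. Mrc1, the mannose receptor CD206, was at 128, 84.1 and 133 CPM, and Stab1, a scavenger receptor, at 103, 53.7 and 89.0 CPM. Spp1, which encodes osteopontin, was at 355, 183 and 345 CPM, with a ratio of 0.514 (0.477 to 0.555). Y-linked members without the set gave 0.209 for Spp1, with 1290, 270 and 519 CPM, and 0.316 for Mrc1. In the members with no UMI of Ly6c2, Ccr2 or Plac8, which were 423, 237 and 237, both genes were close between libraries, at log2 ratios of 0.03 for Spp1 and 0.25 for Mrc1. In the members with such a UMI, Spp1 was at 378, 151 and 494 CPM and Mrc1 at 130, 68.7 and 151. In this split, the lower levels of DU101 were found in the members with monocyte-linked RNA. The split also sorted Control members by the set, with Lipg at 1050 CPM in those without such a UMI and 143 in those with one. Control members with the set had Spp1 at 39.9 CPM, against 564 without it, and Mrc1 at 43.0 against 185. Members without such a UMI had a median of 5104 UMIs in Control and 2786 in DU101. The part of the set and of depth in this split was not tested.

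Trem2 and Gpnmb, which mark lipid-associated macrophages, were at 182, 170 and 175 CPM and at 105, 88.2 and 69.1 CPM. Chil3, a chitinase-like protein of monocytes and alternatively activated macrophages, was at 492, 166 and 325 CPM, a ratio of 0.339 (0.314 to 0.365), and 0.136 in Y-linked members without the set. Hebp1, a haem-binding protein, was at 188, 81.7 and 180 CPM. Cd300lf, a receptor for lipids on dying cells, was at 204, 94.0 and 247 CPM. These 3 genes were lowest in DU101. Cd274, which encodes PD-L1, was at 48.4, 46.9 and 61.1 CPM, and Tgfb1 at 264, 210 and 304. Nos2, the inducible nitric oxide synthase, had 0, 1 and 0 UMIs in all members, and Cd163 stood at 1.85, 0.404 and 1.99 CPM.

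Of 25 cell cycle genes, 5 were lower in DU101 and 0 higher, where 8.65% of all genes were lower and 3.91% higher. The list median was -0.32, and it was 0.11 in members without the set. Mki67 was at 95.2, 57.6 and 96.4 CPM. Ly6c2 and Ccr2, genes of classical monocytes, were at 109, 210 and 130 CPM and at 200, 287 and 232 CPM. Thinned to 2000 UMIs, a UMI of Ly6c2, Ccr2 or Plac8 was found in 43.2% of members in Control, 60.5% in DU101 and 43.8% in DU102 (56.5%, 71.7% and 59.3% without thinning). The thinned shares were 20.5%, 28.2% and 31.3% in Kupffer cells and 98.7%, 98.4% and 98.9% in monocytes, so the members lay between them. T cells showed 47.8%, 66.7% and 67.7%. Whether T cells make this RNA themselves was not tested, so their shares are not taken as a background here.

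DU102 differed less from Control. Of 8054 genes, 207 (2.57%) were higher and 189 (2.35%) lower, and the median log2 ratio was 0.03. Type I interferon genes had 0 of 34 higher and 2 lower with a median of -0.02, and MHC class II genes 0 of 11 higher and 1 lower with a median of -0.05. That 1 was H2-Eb1, with a ratio of 0.657 (0.631 to 0.683). In Y-linked members H2-Eb1 was at 658 CPM in Control and 737 in DU102, so the lower level of DU102 was not seen there. Of 19 chemokines, 0 were higher and 6 lower, with a median of -0.26. Against Y-linked Control members the chemokine median turned to 0.17 and the class II median to 0.67. Ccl12 had a ratio of 0.554 (0.438 to 0.694), and 1.01 in Y-linked members, while Cxcl1 had 0.421 (0.285 to 0.606).

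Il1b was higher in DU102 than in Control in each of the splits by sex and set. Its ratio over Control was 1.91 (1.81 to 2.02), 2.25 in Y-linked members and 2.60 in Y-linked members without the set. In the neutrophils of the same libraries Il1b was at 3141, 689 and 740 CPM, the reverse order. Fkbp5, a chaperone of the glucocorticoid receptor that glucocorticoids induce, was at 130, 48.9 and 45.2 CPM. Its ratio was 0.348 (0.295 to 0.407) for DU102 and 0.376 (0.326 to 0.433) for DU101, and 0.280 and 0.333 in Y-linked members without the set. Fkbp5 was low in both treated libraries in other cells as well, at 122, 63.1 and 48.1 CPM in monocytes and 82.1, 48.3 and 37.7 in T cells. The T cell value of DU102 includes the neutrophil RNA given above for that class. Of 13 genes on the list of glucocorticoid restraint, 4 were lower in DU102 and 3 in DU101, and none was higher in either. Over all genes, 2.35% were lower in DU102 and 8.65% in DU101. Klf9, a transcription factor that glucocorticoids induce, was at 37.6, 20.4 and 19.6 CPM. The comparisons of DU101 and DU102 share the Control members, so a high or low Control level enters both.

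Adamdec1 and Klra17, of the set, were higher in DU102 than in Control, with ratios of 1.72 (1.55 to 1.91) and 1.74 (1.53 to 1.97). Krt18 and Krt8, keratins of epithelial cells, were ranked highest by the naming rule in DU102 over Control, but 1 cell held 92.3% and 90.5% of their DU102 UMIs. Without the highest member of each library the ratios were 1.41 and 1.34. Lyve1, a hyaluronan receptor of endothelium and some resident macrophages, was at 19, 4.45 and 52.5 CPM, and its UMIs came from 18, 4 and 12 cells.

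Set against DU101, 828 of 7133 genes were higher in DU102 (11.6%) and 333 lower (4.67%), with a median log2 ratio of 0.11. Of 34 type I interferon genes 17 were lower and 0 higher, with a median of -0.58. Of 17 chemokines 12 were lower and 2 higher, with a median of -1.23. Of 11 class II genes 7 were lower and 1 higher, with a median of -0.82. Ccl8 had a ratio of 0.0976 (0.0714 to 0.131) and H2-Eb1 of 0.234 (0.225 to 0.242). Lipg, at 54.6 CPM in DU101 and 531 in DU102, had a ratio of 9.73 (8.57 to 11.1), and Fcgr4 one of 4.17 (3.96 to 4.39). This is the comparison in which both libraries held almost only male RNA. In Y-linked members without the set the ratio was 0.765 for H2-Ab1, 0.619 for Isg15, 0.470 for Cxcl10 and 0.0753 for Ccl8. H2-Ab1 was then within 1.5-fold, while Isg15, Cxcl10 and Ccl8 were not.

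**Figure D5:**
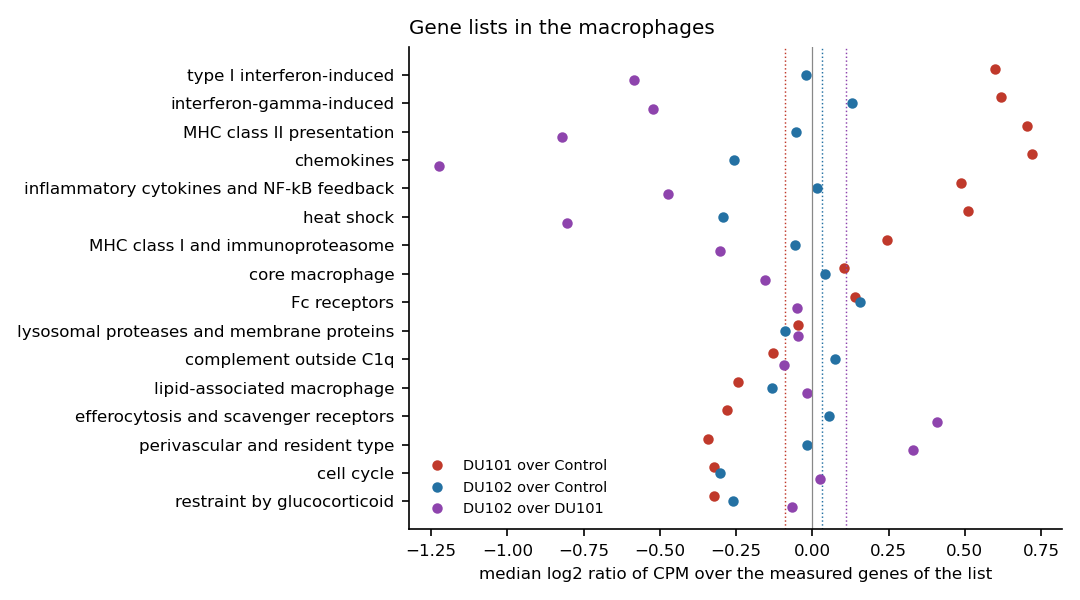
Median log2 ratio of CPM over the measured genes of each list in the 3 comparisons of members, with dotted lines at the median over all genes tested. The type I interferon, interferon-gamma, MHC class II and chemokine lists are at 0.60, 0.62, 0.70 and 0.72 in DU101 over Control and below 0 in DU102 over DU101.

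RNA of other cell types differed between libraries. The erythroid list was at 1353 CPM in Control, 30.1 in DU101 and 5668 in DU102, and Hbb-bs, a beta globin, had 80.7% of its Control UMIs and 48.5% of its DU102 UMIs in 1 cell. The summed level of 13 T cell genes was 36.7, 66.9 and 27.6 CPM, with 3, 3 and 5 of them at 0 UMIs, of which Cd3d, Cd3e and Cd3g are at 0 by the rule. The NK cell list was at 385, 394 and 132 CPM and the endothelial list at 202, 117 and 366, with 11 of 11 endothelial genes higher in DU102 than in Control. The neutrophil list, which includes the rule genes S100a8 and S100a9, was at 395, 1176 and 1759 CPM, highest in the libraries where Il1b was high, and its part in the Il1b result was not tested. The hepatocyte list was at 751, 1381 and 592 CPM, and the list of 12 patrolling monocyte genes, of which 5 were lower and 1 higher in DU101, at 1661, 1058 and 1859. Plasmacytoid dendritic cell genes were at 497, 888 and 521 CPM, and Kupffer genes outside the rule at 936, 922 and 859. Their part in the differences above was not tested.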

How the data were processed

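The deposited files hold raw counts of UMIs per gene and barcode. Per the file headers they were made with Cell Ranger 6.0.0, whereas version 2.1.1 and the mm10 build stand in the submitters' processing notes. Which annotation release was counted is not stated in any source used here. All 32285 features were read for each library, whose totals were 91013198, 106604935 and 96817875 UMIs in Control, DU101 and DU102.

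Counts were summed over the members of a library and scaled to counts per 1000000 (CPM). The ratio of 2 libraries carries the exact 95% interval of a ratio of 2 Poisson counts, which covers counting error only. Genes with at least 100 UMIs over both libraries were called by size, at 1.5-fold, and a level of 0 was set against 3 counts. Shares were compared after thinning to 2000 UMIs, which left out 151, 165 and 123 shallower members. Doublets were called with Scrublet (in scanpy 1.11.5), which marked 2.53%, 3.14% and 2.06% of barcodes. Called members were kept, and leaving them out was an alternative. Comparison classes were set by raw UMIs (Kupffer cells by at least 5 UMIs of the Kupffer genes, monocytes by at least 2 of Ly6c2, T cells by at least 2 of Cd3). Monocytes also had at most 1 C1q UMI and T cells had none, and the T cell class had no limit on neutrophil genes. A hepatocyte class held 1 cell per library and was not used. The scripts ran under Python 3.11.15 with pandas 2.3.3, scipy 1.17.1, numpy 2.4.6 and matplotlib 3.10.9, and were tested on simulated data.

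Genes were named as the 10 highest and 10 lowest of each comparison, ranked on the interval's bound closest to 1. In the library with more, they needed a level of 50 CPM or more and 0.25 or more of the highest class level, and rule genes, hepatocyte, sex-linked, haemoglobin, immunoglobulin, T cell receptor, ribosomal, mitochondrial and unnamed genes were left out. The 3 highest and 3 lowest members of each gene list, the 5 given markers and a fixed series of macrophage genes were named beside them. The members, the lists and these rules were chosen with earlier results of these data known. The 8-gene set and the splits by it were chosen after the values were seen, and so were the other list members named and the genes of the cells with the set.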

Additional observations from a re-analysis of the deposited data

How the results depend on the processing

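Each group is 1 library, so leaving out a replicate was not possible, and depth sets the width of each interval. No paired analysis was possible because every group has 1 library, and the shared replicate number pairs nothing. Of the alternatives, 4 were added after seeing the data: members with at least 2000 UMIs, members with fewer than 2 UMIs of the set, the latter with Y-linked RNA and no Xist, and each gene without its highest member. Other scaling, other mitochondrial and gene limits and leaving out called doublets turned no direction named here. The causes of the changes below were not tested. List medians and genes are log2 ratios.

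The share of members in Control, DU101 and DU102 was 7.69%, 4.66% and 4.17% with at least 10 C1q UMIs, 8.15%, 5.17% and 4.34% with a Kupffer sum of 0, and 8.07%, 5.33% and 4.32% with a mitochondrial limit of 5%. With C1q at least 0.1% of UMIs it was 6.75% in DU101 and 5.53% in DU102, the chemokine median of DU102 over DU101 was -1.50, and Krt8 in DU102 over Control was -0.0099. Without members holding an NK marker UMI, Krt8 was -0.16.

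With genes of at least 200 UMIs, 97 genes were higher and 76 lower in DU102 over Control, 425 lower in DU101 over Control, and 504 higher and 212 lower in DU102 over DU101. With at least 50 UMIs, DU102 over Control had 421 higher and 378 lower, and DU102 over DU101 530 lower. With members weighted alike, DU102 over Control had 328 higher and 314 lower, and C4b was 0.56.

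With Y-linked Control members only, 582 genes were higher in DU101 and 328 in DU102. The DU101 medians became 0.93 for type I interferon, 1.62 for MHC class II, 1.71 for chemokines and 0.034 for the perivascular list. Those of DU102 became 0.27, 0.67 and 0.17 for the first 3 and 0.28 for heat shock, and Ccl12, H2-Eb1 and Hsph1 were 0.25, 0.32 and 0.83.

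With members holding fewer than 2 UMIs of the set, 347 genes were lower in DU101 over Control, 113 lower in DU102 over Control and 431 higher in DU102 over DU101. For DU101 over Control, MHC class II was 0.40, cell cycle 0.11, Cd300e 0.39, Fcgr4 0.13 and Mki67 0.11. Klrb1b in DU102 over Control was -0.72, and MHC class II in DU102 over DU101 -0.37. With Y-linked members of this kind in every library the 3 counts were 326, 86 and 353. For DU101 over Control, chemokines were 1.42, cell cycle 0.073, Ccnd2 0.44, Cd300e 1.11, Itgax 0.10 and Mki67 0.29. For DU102 over Control, MHC class II was 0.40, type I interferon 0.25, heat shock 0.53, H2-Eb1 0.073, Hsph1 1.55 and Klrb1b -1.91. For DU102 over DU101, MHC class II was -0.29, chemokines -0.93 and type I interferon -0.30.

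With members holding no Ly6c2, Ccr2 or Plac8 UMI, 131 genes were higher and 124 lower in DU102 over Control, and 503 higher in DU102 over DU101. For DU101 over Control, MHC class II was 1.64, chemokines 1.61, type I interferon 1.29, the perivascular list 0.55, efferocytosis 0.33, Mrc1 0.25 and Spp1 0.026. For DU102 over Control, Ccl12 was 1.07, Krt8 -1.31 and Lyve1 -4.74. For DU102 over DU101, MHC class II was -1.45, type I interferon -1.21, interferon-gamma -0.24, inflammatory genes 0.12, the perivascular list -0.95, efferocytosis -0.36 and Lyve1 -4.80. Without the highest member of each gene, the chemokine median of DU102 over Control was -0.57.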

Other observations

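Heat shock genes, whose chaperones refold damaged proteins, were also higher in DU101 members. Of 14 measured genes, 5 were higher than in Control and 0 lower, with a median log2 ratio of 0.51. The list was highest in DU101 in Kupffer cells too, at 5946, 8026 and 5532 CPM, and in monocytes, at 9022, 11147 and 9305. In B cells it was not, at 8626, 7382 and 7325 CPM. Hspa1b, an inducible HSP70, was at 568 CPM in Control, 978 in DU101 and 487 in DU102, and Dnaja1, a co-chaperone of HSP70, at 397, 624 and 287. Among 19 immediate-early genes, which respond within minutes to a stimulus and to tissue handling, 3 were higher and 0 lower, with a median of 0.35. Atf3, a stress-induced transcription factor, was at 471, 827 and 350 CPM, and Ier3, an early-response gene, at 156, 292 and 147. In DU102 over Control, the heat shock median was -0.29, with 0 of 14 higher and 1 lower.

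Genes of glycolysis and hypoxia differed little, with 3 of 25 higher in DU101 and 0 lower and a median of 0.14. Hilpda, which slows the breakdown of lipid droplets and is induced by low oxygen, was at 32.3, 75.6 and 56.4 CPM, and so was high in both treated libraries. Of 18 genes of iron and haem handling, 2 were lower in DU101 and 0 higher, where 8.65% of all genes were lower and 3.91% higher. Among 24 chemokine and growth factor receptors, 0 were higher and 1 lower in DU101, although 11 of 19 chemokines were higher there.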
